A study of Mus musculus with 6 samples.

Results

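Thrombospondin genes and a few genes of inhibitors of blood vessel growth were followed in the mouse tissue around engineered cartilage. The set holds 8 genes, chosen by name: the 4 thrombospondins Thbs1, Thbs2, Thbs3 and Thbs4, the secreted serpin Serpinf1, the membrane protein gene Tnmd, the matrix glycoprotein gene Sparc and the endothelial gene Vash1. All 8 were found among the 48440 genes of the count table, and all 8 were among the 15257 genes with enough reads to be tested. Cartilage had been engineered from rabbit bone marrow stromal cells (BEC), wrapped in an electrospun membrane of poly(ε-caprolactone) and collagen, and placed under the skin of BALB/c nude mice, which lack a thymus and most T cells. Per the study's methods the mice were male and were bought as young adults. In the 0%-Axitinib group (3 samples) the membrane held no drug, and in the 3%-Axitinib group (3 samples) it held 3% by mass of axitinib, an inhibitor of the tyrosine kinase of the VEGF receptors. Samples were taken 12 weeks after implantation, and RNA was sequenced from the mouse tissue entangled with the implant. The labels call the first group untreated. It was read as BEC in a membrane with 0% of the drug, because the deposited protocol and the study's methods name that group for the sequencing, and each comparison here rests on that reading. A pair of constructs of the same group was implanted in each mouse and the mouse is not named for any sample, so n counts samples and p-values measure the spread between these samples only.

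New vessels grow when VEGF made by tissue cells acts on its receptors on endothelial cells, and a group of secreted and matrix proteins holds that growth back. Thbs1 and Thbs2 form trimers with repeats that bind CD36 on endothelial cells, whereas Thbs3, Thbs4 and the cartilage protein Comp form pentamers without those repeats. Thbs3 and Thbs4 are in the set as family members, and an effect of theirs on vessels is not implied. Cartilage, tendon and the cornea, which hold few or no vessels, are known to carry several such inhibitors.

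Counts on genes came to between 9225518 and 18403795 per sample. Levels are given as CPM, a gene's count relative to the scaled total of its library, and 3 counts, taken as the floor of detection, corresponded to between 0.157 and 0.330 CPM. Unmapped reads made up 5.47%, 3.84% and 14.9% of the 0%-Axitinib libraries (replicates 1, 2 and 3, the order used throughout) and 48.4%, 29.2% and 16.8% of the 3%-Axitinib libraries, so that each 3%-Axitinib library had a larger share than each 0%-Axitinib library. The implant was rabbit tissue and the reads were mapped to the mouse genome. From which species the unmapped reads came was not analysed here, and the part of rabbit RNA in the levels below was not tested. Since the tissue was sequenced in bulk, fewer cells of a type and less RNA per cell cannot be told apart.

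Of the 8 genes, 4 were higher in the 3%-Axitinib group by the study's criterion (a fold change of at least 1.5 with an unadjusted P of at most 0.05): Thbs2, Thbs3, Serpinf1 and Sparc. The criterion was met in that direction by 9.54% of all tested genes. Vash1 met it in the other direction, as did 11.7% of all tested genes, and Thbs1, Thbs4 and Tnmd did not meet it. The same 5 genes were those whose groups did not overlap, 4 of them higher and 1 lower in the 3%-Axitinib group, beside 14.7% and 16.6% of all tested genes. Their levels were thus not uniformly raised or lowered: the median log2 fold change was 0.88 over the 8 genes and -0.03 over all tested genes. With p-values adjusted over the whole table by the Benjamini-Hochberg method, 0 of the 8 reached 0.05 in the quasi-likelihood test of edgeR. That level was reached by 1 gene of the table (0.00655%), whereas 3585 genes were at or below 0.05 before adjustment. DESeq2's Wald test brought 4 of the 8 (Thbs2, Serpinf1, Sparc and Vash1) to an adjusted p of 0.05 or less, as it did 12.9% of all tested genes, and limma-voom brought 0 of the 8 and 0.0131% of all tested genes there. By the study's criterion in edgeR, the count of 4 genes higher became 2 without replicate 2 of the 0%-Axitinib group, and 2 without replicate 2 of the 3%-Axitinib group. The count of 1 gene lower became 0 without replicate 1 of the 0%-Axitinib group and without replicate 1 or 2 of the 3%-Axitinib group. In the whole table, the number at that adjusted level in edgeR became 1252 without replicate 3 of the 0%-Axitinib group and 58 without replicate 2 of the 3%-Axitinib group.

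**Figure D1:**
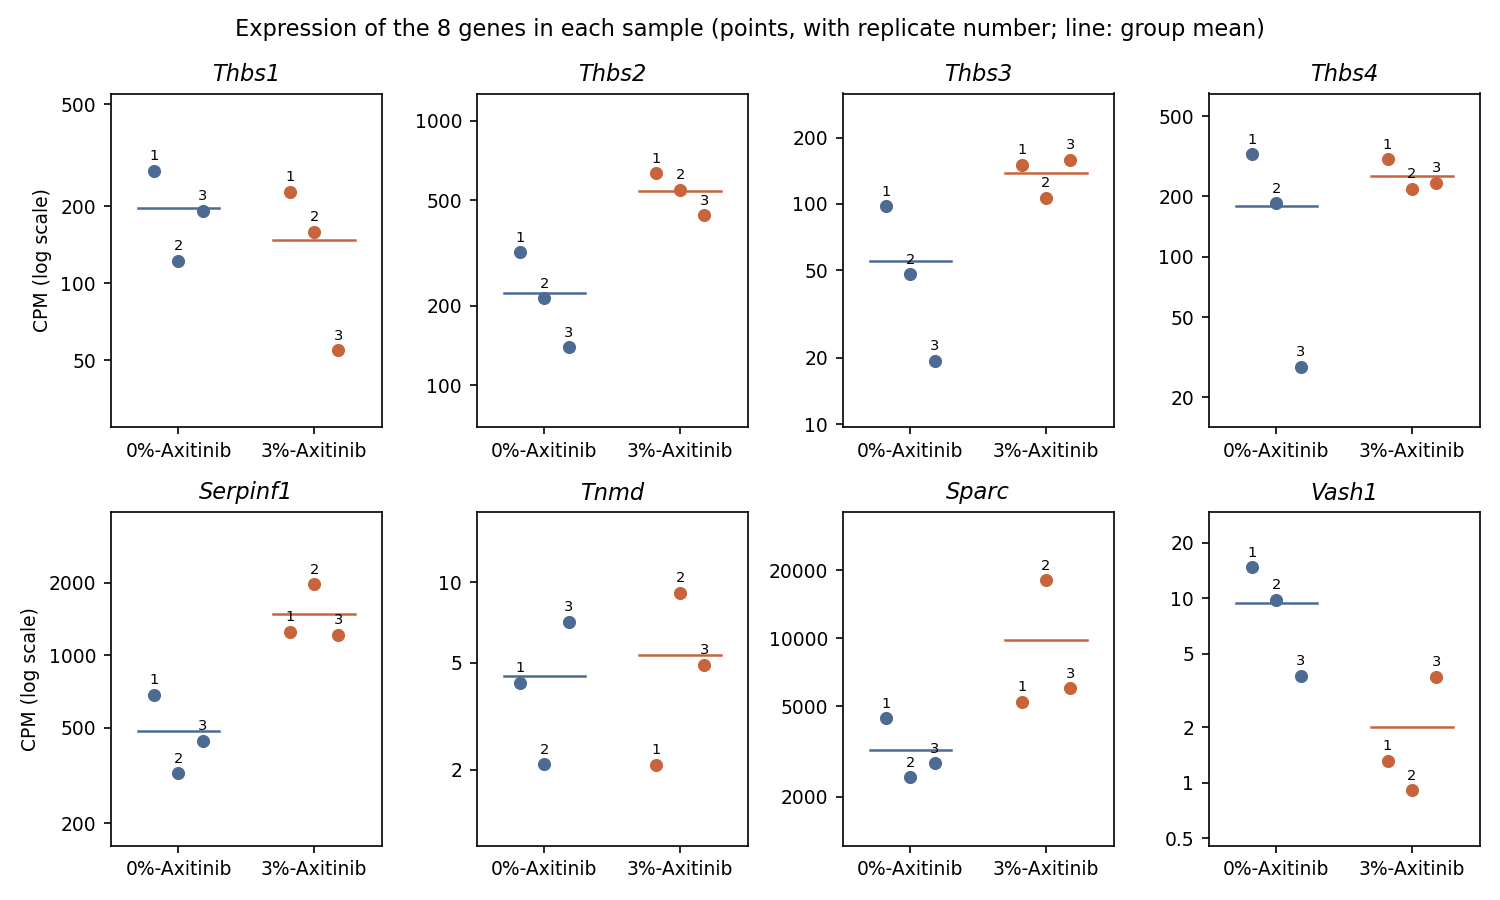
CPM of each of the 8 genes (log scale, each panel with its own range) in the 3 samples of the 0%-Axitinib group (blue) and the 3 samples of the 3%-Axitinib group (orange). Points are samples with their replicate number and lines are group means. The groups are apart for Thbs2, Thbs3, Serpinf1, Sparc and, by a narrow gap between 3.80 and 3.76 CPM, Vash1, and they overlap for Thbs1, Thbs4 and Tnmd.

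Of the trimeric thrombospondins, Thbs2 met the criterion and Thbs1 did not. Thbs2, a matrix protein of fibroblasts that binds CD36 and slows endothelial growth, had 318, 214 and 139 CPM in the 0%-Axitinib group and 632.5, 548 and 440.1 CPM in the 3%-Axitinib group. The lowest 3%-Axitinib sample lay above the highest 0%-Axitinib sample, and the means were 224 ± 90.1 CPM (SD, n = 3) and 540.3 ± 96.5 CPM (SD, n = 3). In the fit this is a log2 fold change of 1.27 (standard error, SE, 0.35), with an adjusted p of 0.117 from edgeR's quasi-likelihood test. Whichever single sample was left out, the criterion was met, with log2 fold changes between 1.02 and 1.61. Thbs2 lies on the minus strand at chr17:14665500-14694235 (GRCm38).

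Thbs1, the founding member of the family, is stored in platelet granules and is also made by macrophages and stromal cells. Its level was 275, 123 and 192 CPM in the 0%-Axitinib group and 227, 159 and 54.9 CPM in the 3%-Axitinib group. The samples of the groups overlapped, and replicate 3 of the 3%-Axitinib group stood below the other 5 samples. A log2 fold change of -0.42 (SE 0.53) had an adjusted p of 0.655 in edgeR's test, and it lay between -0.88 and -0.03 when single samples were left out, the value nearest to 0 being that without replicate 3 of the 3%-Axitinib group. Thbs1 (plus strand, chr2:118111876-118127133) shares 208 exon bases with the noncoding gene Gm29233 on the other strand. Whether the counting used the strand is not given in the sources used here, so reads from the shared bases cannot be told apart.

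Per kilobase of exon, Thbs2 stood at 1.00, 1.51 and 0.629 times the level of Thbs1 in the 0%-Axitinib samples. In the 3%-Axitinib samples it stood at 2.41, 3.00 and 6.95 times that level. The ratio, which is taken within a library and so does not depend on how libraries are scaled, was higher in each 3%-Axitinib sample than in each 0%-Axitinib sample. It was chosen after the values were seen and was not tested. Thbs1 made up 21.6%, 17.3% and 49.3% of the summed per-length level of the 4 thrombospondins in the 0%-Axitinib group and 14.9%, 13.6% and 5.14% in the 3%-Axitinib group.

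Platelet markers were each highest in replicate 3 of the 0%-Axitinib group. Their summed level was 122, 74.2 and 972 CPM in the 0%-Axitinib group and 185, 250 and 188 CPM in the 3%-Axitinib group. Among all tested genes 9.54% met the criterion higher and 11.7% lower, for comparison with this and each later list. Of the 8 markers 6 were tested, 0 met the criterion higher and 1 met it lower. Pf4, a platelet chemokine and the most abundant of them per length, had 95.3, 45.6 and 291 CPM against 152, 220 and 149 CPM, while Ppbp reached 264 CPM in replicate 3 of the 0%-Axitinib group and at most 3.37 CPM elsewhere, and Itga2b 232 CPM against at most 17.1 CPM elsewhere. Macrophage markers (7 of 7 tested, 0 past the criterion) summed to 10298, 11060 and 7760 CPM and to 7382, 9469 and 15512 CPM. Lyz2 was the most abundant, and the log2 fold changes of Adgre1, Csf1r and Cd68 were -0.96, -0.20 and 0.20, with groups that overlapped for each. No marker of either list was at 0 in all samples, and the part of platelets and macrophages in the Thbs1 level was not tested.

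**Figure D2:**
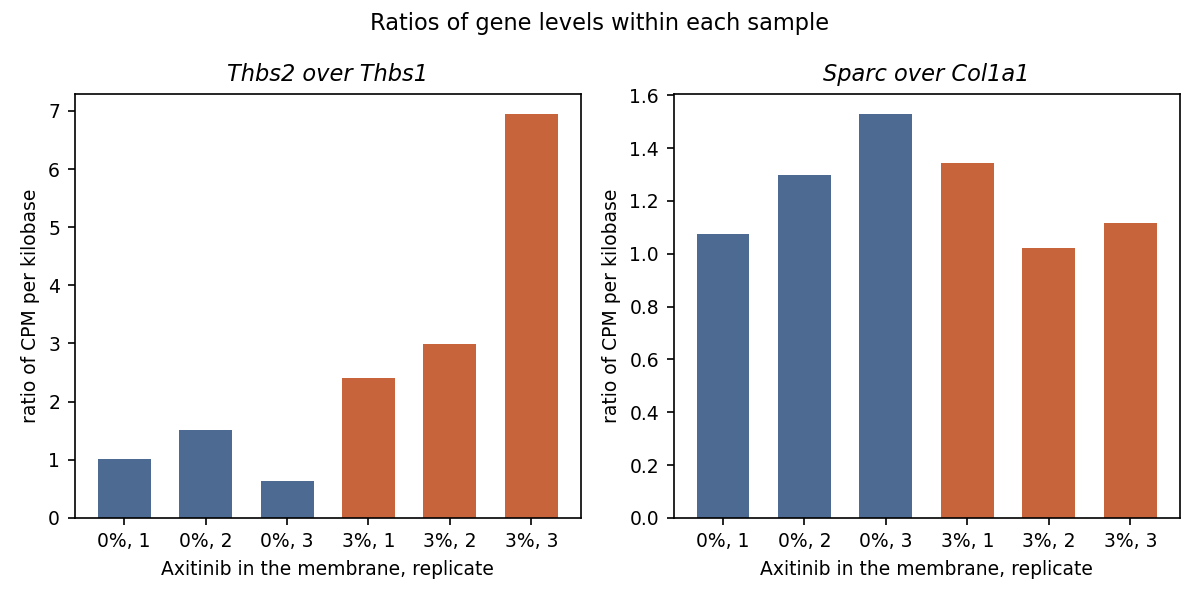
Ratios of CPM per kilobase of exon within each sample (bars, axis from 0) for Thbs2 over Thbs1 and for Sparc over Col1a1, in the 0%-Axitinib group (blue) and the 3%-Axitinib group (orange), by replicate. The Thbs2 to Thbs1 ratio runs from 0.629 to 1.51 without the drug and from 2.41 to 6.95 with it, whereas the Sparc to Col1a1 ratio overlaps between the groups and stays between 1.02 and 1.53.

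Of the pentameric thrombospondins, Thbs3 was higher in the 3%-Axitinib group. Thbs3, which is expressed in growing skeleton, had 97.8, 48.0 and 19.4 CPM in the 0%-Axitinib group and 151, 107 and 159 CPM in the 3%-Axitinib group. The 0%-Axitinib samples were spread widely, their highest value just below the lowest 3%-Axitinib value. On the log2 scale the difference was 1.33 (SE 0.54), with an adjusted p of 0.199 in edgeR's test. The criterion was lost without replicate 2 of the 0%-Axitinib group (1.23) and without replicates 1 (1.26), 2 (1.48) or 3 (1.21) of the 3%-Axitinib group. It was kept without replicate 1 (2.04) and without replicate 3 (0.92) of the 0%-Axitinib group. Scaling by total counts moved the log2 fold changes of all genes by a median of -0.13, and Thbs3 then stood at 1.19 and no longer met it. Thbs3 (plus strand, chr3:89215180-89226837) shares 318 exon bases with Mtx1, a mitochondrial import gene on the other strand, so its level is uncertain by the reads of that stretch.

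Thbs4, a thrombospondin of tendon, muscle and heart, had 324, 184 and 28.5 CPM in the 0%-Axitinib group and 306, 218 and 234 CPM in the 3%-Axitinib group. Replicate 3 of the 0%-Axitinib group was far below the other 5 samples, which lay between 184 and 324 CPM. Its log2 fold change of 0.50 (SE 0.73) had an adjusted p of 0.704 in edgeR's test, and without that low sample it was -0.014, so that the direction rested on 1 library. Thbs4 lies on the minus strand at chr13:92751590-92794818. The same library was also the lowest in Thbs2, Thbs3 and, within its group, Vash1, and it was the one rich in platelet markers. Its Spearman correlation with the other 0%-Axitinib libraries across the tested genes was 0.891 and 0.893, against 0.978 between those.

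Skeletal muscle markers separated the libraries in another way. Their summed level was 192, 34.1 and 38.2 CPM in the 0%-Axitinib group and 16601, 47.1 and 8932 CPM in the 3%-Axitinib group, so that replicates 1 and 3 of the latter were rich in muscle RNA and replicate 2 was not. Of 18 markers 17 were tested and 15 met the criterion higher. Acta1, the actin of skeletal muscle and the most abundant, had 3924 and 1852 CPM in those libraries and at most 35.1 CPM elsewhere. Ckm was at 0 in replicate 3 of the 0%-Axitinib group and replicate 2 of the 3%-Axitinib group, as was Myh4. Without both muscle-rich libraries, which leaves 1 sample with the drug whose spread is assumed to be that of the other group, 2 of the 8 genes met the criterion higher in place of 4. Thbs2 (1.27) and Thbs3 (0.93) no longer met it, Sparc (2.47), Serpinf1 (2.02) and Vash1 (-3.39) did, and Thbs1 (-0.32), Thbs4 (0.25) and Tnmd (1.02) again did not. The part of muscle in the levels of Thbs2 and Thbs3 was not tested.

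Serpinf1 encodes pigment epithelium-derived factor, a secreted serpin without protease inhibition that is strongly antiangiogenic and is made in bone and cartilage. It had 684, 323 and 440.0 CPM in the 0%-Axitinib group and 1249, 1968 and 1213 CPM in the 3%-Axitinib group. Each 3%-Axitinib sample was above each 0%-Axitinib sample by a wide gap, from 684 to 1213 CPM. The means were 482 ± 184 CPM (SD, n = 3) and 1477 ± 426 CPM (SD, n = 3). That is a log2 fold change of 1.61 (SE 0.39), with an adjusted p of 0.0989 in edgeR's test. It met the criterion whichever single sample was left out (1.35 to 1.95). Without both muscle-rich libraries the log2 fold change was 2.02. That fit leaves only replicate 2 of the 3%-Axitinib group, the sample highest in Serpinf1. Serpinf1 lies on the minus strand at chr11:75409769-75422701.

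Sparc (osteonectin), a collagen-binding glycoprotein that also binds VEGF, was the most abundant of the 8 genes. Its level was 4427, 2427 and 2810 CPM in the 0%-Axitinib group and 5252, 18042 and 6017 CPM in the 3%-Axitinib group. Replicate 2 of the 3%-Axitinib group stood far above all others, and there Sparc alone took 1.69% of the counts on genes. The other 3%-Axitinib samples were only slightly above the highest 0%-Axitinib sample. Sparc had a log2 fold change of 1.60 (SE 0.60), with an adjusted p of 0.177 in edgeR's test, and it was 0.80 without replicate 2 of the 3%-Axitinib group, where the criterion was not met. It was not met either without replicate 2 (1.43) or replicate 3 (1.51) of the 0%-Axitinib group. Sparc lies on the minus strand at chr11:55394500-55423183.

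Bone markers had a summed level of 1401, 1544 and 1990 CPM in the 0%-Axitinib group and 3014, 19109 and 4341 CPM in the 3%-Axitinib group, again with replicate 2 far above the rest. All 11 were tested, 5 met the criterion higher and 0 lower. Spp1 was the most abundant per length. Ibsp, which encodes bone sialoprotein, had 235, 182 and 330 CPM against 1047, 10536 and 1807 CPM. Sp7, the transcription factor osterix, had 7.46, 3.21 and 32.1 CPM against 15.7, 164 and 33.8 CPM, and Bglap, or osteocalcin, 5.32, 1.23 and 111 CPM against 0.550, 26.4 and 21.5 CPM, with groups that overlapped for both.

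Fibroblast markers (10 of 10 tested, 1 met the criterion higher, 0 lower) summed to 27823, 13868 and 10918 CPM in the 0%-Axitinib group and to 24345, 71811 and 27028 CPM in the 3%-Axitinib group. Col1a1, the most abundant, had 7130, 3236 and 3181 CPM against 6774, 30639 and 9337 CPM, Col1a2 had a log2 fold change of 1.23, and Pdgfra, a receptor of fibroblasts, 0.26. Per kilobase, Sparc stood at 1.08, 1.30 and 1.53 times the level of Col1a1 in the 0%-Axitinib samples and at 1.34, 1.02 and 1.12 times in the 3%-Axitinib samples, so that this ratio overlapped between the groups. Cartilage markers (16 listed, 12 tested, 7 higher and 0 lower by the criterion) summed to 389, 241 and 256 CPM and to 381, 1716 and 731 CPM. Comp was their most abundant gene per length, and the log2 fold changes were 2.53 for Col2a1, 3.92 for Acan and 1.31 for Sox9. Snorc had no line in the table under that name. The part of bone, fibroblast and cartilage cells in the levels of Sparc and Serpinf1 was not tested.

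Tnmd encodes tenomodulin, a membrane protein of tendon cells whose extracellular domain inhibits endothelial cells. It was scarce, at 4.23, 2.10 and 7.12 CPM in the 0%-Axitinib group and 2.09, 9.11 and 4.92 CPM in the 3%-Axitinib group. The groups overlapped fully, and the counts behind these levels were between 19 and 131 reads. A log2 fold change of 0.26 (SE 0.64) had an adjusted p of 0.828 in edgeR's test, and it turned to -0.33 without replicate 2 of the 3%-Axitinib group and to -0.08 without replicate 2 of the 0%-Axitinib group. Tnmd lies on the plus strand at chrX:133850980-133865577. Tendon markers summed to 341, 99.0 and 105 CPM and to 611, 995 and 325 CPM, of which most was Fmod, fibromodulin. Of 5 markers 4 were tested and 2, Scx and Fmod, met the criterion higher, beside 9.54% of all tested genes. Scx, the tendon transcription factor, had a log2 fold change of 1.45, and Mkx, which did not meet the criterion, 1.17. Scx was at most 5.50 CPM and Mkx at most 2.00 CPM, and the groups overlapped for Scx, Mkx and Fmod. Kera was at 0 in 3 samples and at most 1.30 CPM in the others. The part of tendon cells in the Tnmd and Thbs4 levels was not tested.

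Vash1 encodes vasohibin-1, an enzyme that removes the last tyrosine of tubulin, which endothelial cells make in response to VEGF and which limits their growth. It was the gene of the 8 that was lower in the 3%-Axitinib group. Its level was 14.7, 9.86 and 3.80 CPM in the 0%-Axitinib group and 1.32, 0.911 and 3.76 CPM in the 3%-Axitinib group. Replicate 3 of each group met the other at nearly the same level, and the remaining samples were far apart. In reads, these were 282, 169 and 70 counts against 12, 10 and 65 counts. On the log2 scale Vash1 differed by -2.21 (SE 0.70), with an adjusted p of 0.139 in edgeR's test. The criterion was lost without replicate 1 of the 0%-Axitinib group (-1.75) and without replicates 1 (-1.997) or 2 (-1.87) of the 3%-Axitinib group, and the value was -3.09 without replicate 3 of the 3%-Axitinib group. Vash1 lies on the plus strand at chr12:86678700-86692091.

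Endothelial markers were lower with the drug in nearly the whole list. Their summed level was 998, 676 and 1101 CPM in the 0%-Axitinib group and 279, 312 and 427 CPM in the 3%-Axitinib group, without overlap. All 12 were tested, 11 met the criterion lower and 0 higher, and their median log2 fold change was -1.46. Cldn5, a tight junction gene and the most abundant per length, was at -2.38, Pecam1 at -1.61, Cdh5 (VE-cadherin) at -2.37 and Kdr, the main VEGF receptor, at -2.16. Within the 0%-Axitinib group Vash1 was lowest in replicate 3, where the summed endothelial level was highest. Within the 3%-Axitinib group Vash1 was instead highest in replicate 3 (3.76 CPM), where the summed endothelial level was highest too (427 CPM). Smooth muscle and pericyte markers (8 of 8 tested, 0 higher and 2 lower by the criterion) summed to 900, 505 and 663 CPM and to 568, 749 and 484 CPM. Tagln, the most abundant per length, was at -0.07, Acta2 at 0.53, Myh11 at 1.01 and the pericyte gene Rgs5 at -2.21. Of the rest of the list, Mcam was at -1.73, Pdgfrb at 0.09, Cspg4 at 0.91 and Cnn1 at 1.67. The part of endothelial cells and pericytes in the Vash1 level was not tested.

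Per kilobase of exon, the levels of the 8 genes spanned a wide range. In the 0%-Axitinib group the order was Sparc (850 ± 280 CPM per kilobase, SD, n = 3), Serpinf1 (204 ± 78.0), Thbs4 (54.4 ± 44.9), Thbs1 (32.4 ± 12.6), Thbs2 (31.9 ± 12.9), Thbs3 (11.4 ± 8.23), Vash1 (3.64 ± 2.10) and Tnmd (3.31 ± 1.86). Neighbours in this order kept it within every sample, except Thbs4 and Thbs1, Thbs1 and Thbs2, and Vash1 and Tnmd. In the 3%-Axitinib group the order was Sparc (2579 ± 1894), Serpinf1 (626 ± 180), Thbs2 (77.2 ± 13.8), Thbs4 (76.7 ± 14.2), Thbs3 (28.7 ± 5.82), Thbs1 (24.2 ± 14.3), Tnmd (3.97 ± 2.61) and Vash1 (0.769 ± 0.594). Here the exceptions were Thbs2 and Thbs4, and Thbs3 and Thbs1. All 8 genes together took 0.663%, 0.342% and 0.372% of the counts in the 0%-Axitinib group and 0.771%, 1.98% and 0.763% in the 3%-Axitinib group, most of it Sparc.

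Over the 6 samples, the genes that were higher with the drug varied in part together. Pearson's r of log2 CPM was 0.93 between Thbs2 and Thbs3, 0.92 between Sparc and Serpinf1 and 0.88 between Thbs2 and Serpinf1, but 0.59 between Sparc and Thbs3. Thbs1 was related to none of the others, its r lying between -0.23 and 0.05. These values are descriptions over 6 samples that share 2 groups. Among the tested genes with a mean of at least 10 CPM, those most like Sparc were Kdelr3 (r = 0.993), Srpx2 (0.992) and Col1a1 (0.992). The closest to Thbs2 were A430105I19Rik (0.996), Ppm1l (0.994) and Stau1 (0.989), and to Thbs3 they were Scara5 (0.998), Itgb4 (0.995) and Sdk1 (0.991). Serpinf1 was most like Rps4l, Azin2 and Tgfb1i1 (0.996 each), Thbs4 like Ptpn21 (0.995), Sh3d19 (0.992) and Sptbn5 (0.991). For Vash1 the nearest were Ppm1f (0.992), Dnajc14 (0.984) and Rap1gds1 (0.984), and for Tnmd they were Fhl2 (0.990), Erdr1 (0.988) and Arrdc4 (0.982). For Thbs1 the highest values were lower, at 0.956 for Sorbs2, 0.951 for Col8a1 and 0.947 for Tmem47.

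Where receptors of the thrombospondins met the criterion, they were lower with the drug. Of the 11 genes listed as their relatives and receptors, all were tested, 0 met the criterion higher and 5 met it lower. The median over the list was -0.52 on the log2 scale. Cd36, the scavenger receptor through which Thbs1 and Thbs2 act on endothelial cells and which macrophages and adipocytes also carry, had 1392, 3367 and 469 CPM in the 0%-Axitinib group and 443, 409 and 711 CPM in the 3%-Axitinib group. Cd36 thus stood at -1.74 on the log2 scale (SE 0.69), with an adjusted p of 0.190 in edgeR's test, and the groups overlapped through replicate 3 of each. The integrin genes Itgb3 (-1.42), Itga6 (-0.996), Itgav (-0.91) and Itga3 (-0.82) were lower without overlap between the groups. Calr, a chaperone that also binds Thbs1 at the cell surface, was the most abundant per length and was at -0.25. Cd47, the other classical receptor, which was named after its values were seen, had 271, 271 and 361 CPM against 248, 227 and 156 CPM. Its groups did not overlap, but its log2 fold change of -0.52 did not meet the criterion.

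Adipocyte markers mark another source of Cd36. They summed to 1909, 2926 and 1406 CPM in the 0%-Axitinib group and to 1040, 775 and 1252 CPM in the 3%-Axitinib group. Much of this sum was Lpl, named after its values were seen, with 1159, 2204 and 469 CPM against 625, 474 and 951 CPM. All 8 were tested, 0 met the criterion higher and 3 lower. Fabp4, the most abundant per length, was at -1.21 on the log2 scale, and Adipoq (-1.67), Plin1 (-1.13) and Cidec (-1.09) did not meet the criterion. In replicate 1 of the 3%-Axitinib group Adipoq (16.1 CPM), Plin1 (10.8 CPM) and Cidec (22.1 CPM) were near the 0%-Axitinib levels. In replicates 2 and 3 of that group these genes were below every 0%-Axitinib sample. The part of adipocytes and of the endothelial cells described above in the level of Cd36 was not tested.

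Of 6 genes listed as receptors, partners or relatives of Serpinf1, Sparc and Vash1, 5 were tested and 0 met the criterion in either direction. Their median log2 fold change was 0.54. Rpsa, the laminin receptor to which pigment epithelium-derived factor binds, was the most abundant per length and was at 0.54 (SE 0.47). Svbp, the binding partner of the vasohibins, had no line in the table under that name. Vash2, the relative of Vash1 in this list, was named after its values were seen. It had 4.18, 6.65 and 4.07 CPM in the 0%-Axitinib group and 8.36, 7.65 and 8.16 CPM in the 3%-Axitinib group. The groups of Vash2 did not overlap, but its log2 fold change of 0.70 did not meet the criterion. In the SPARC family, 5 of 7 genes were tested, 1 met the criterion higher and 0 lower. Spock2, a proteoglycan with a SPARC-like domain, had 16.0, 7.99 and 7.66 CPM in the 0%-Axitinib group and 26.8, 43.5 and 27.0 CPM in the 3%-Axitinib group. The groups did not overlap and the log2 fold change of 1.62 (SE 0.38) had an adjusted p of 0.0973 in edgeR's test. Fstl1, the most abundant of the family beside Sparc itself, was at 0.55.

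Of 20 other inhibitors of vessel growth, 18 were tested, 1 met the criterion higher and 5 lower, and the median log2 fold change was -0.64. Cxcl9, an interferon-induced chemokine that restrains endothelial cells, had 6.89, 17.0 and 97.3 CPM in the 0%-Axitinib group and 3.19, 0.455 and 1.04 CPM in the 3%-Axitinib group (log2 fold change -4.73, SE 1.19). Replicate 3 of the 0%-Axitinib group was again apart, here as the highest, and the groups did not overlap. Cxcl10, of the same family, was at -3.55 and likewise peaked in that sample, and Adamts8, a protease with thrombospondin repeats, was at -2.80 with groups that overlapped. Flt1, the VEGF receptor whose soluble form traps VEGF, was at -1.22 (SE 0.27) and Mmrn2, an endothelial matrix protein, at -1.04, both without overlap. Timp2, the most abundant per length, was at 0.02. The gene that was higher was Ism1, named after its values were seen, an antiangiogenic protein with a thrombospondin repeat, at 0.89. Over all 4 lists, 39 of 44 genes were tested, 2 met the criterion higher and 10 lower, beside 9.54% and 11.7% of all tested genes.

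**Figure D3:**
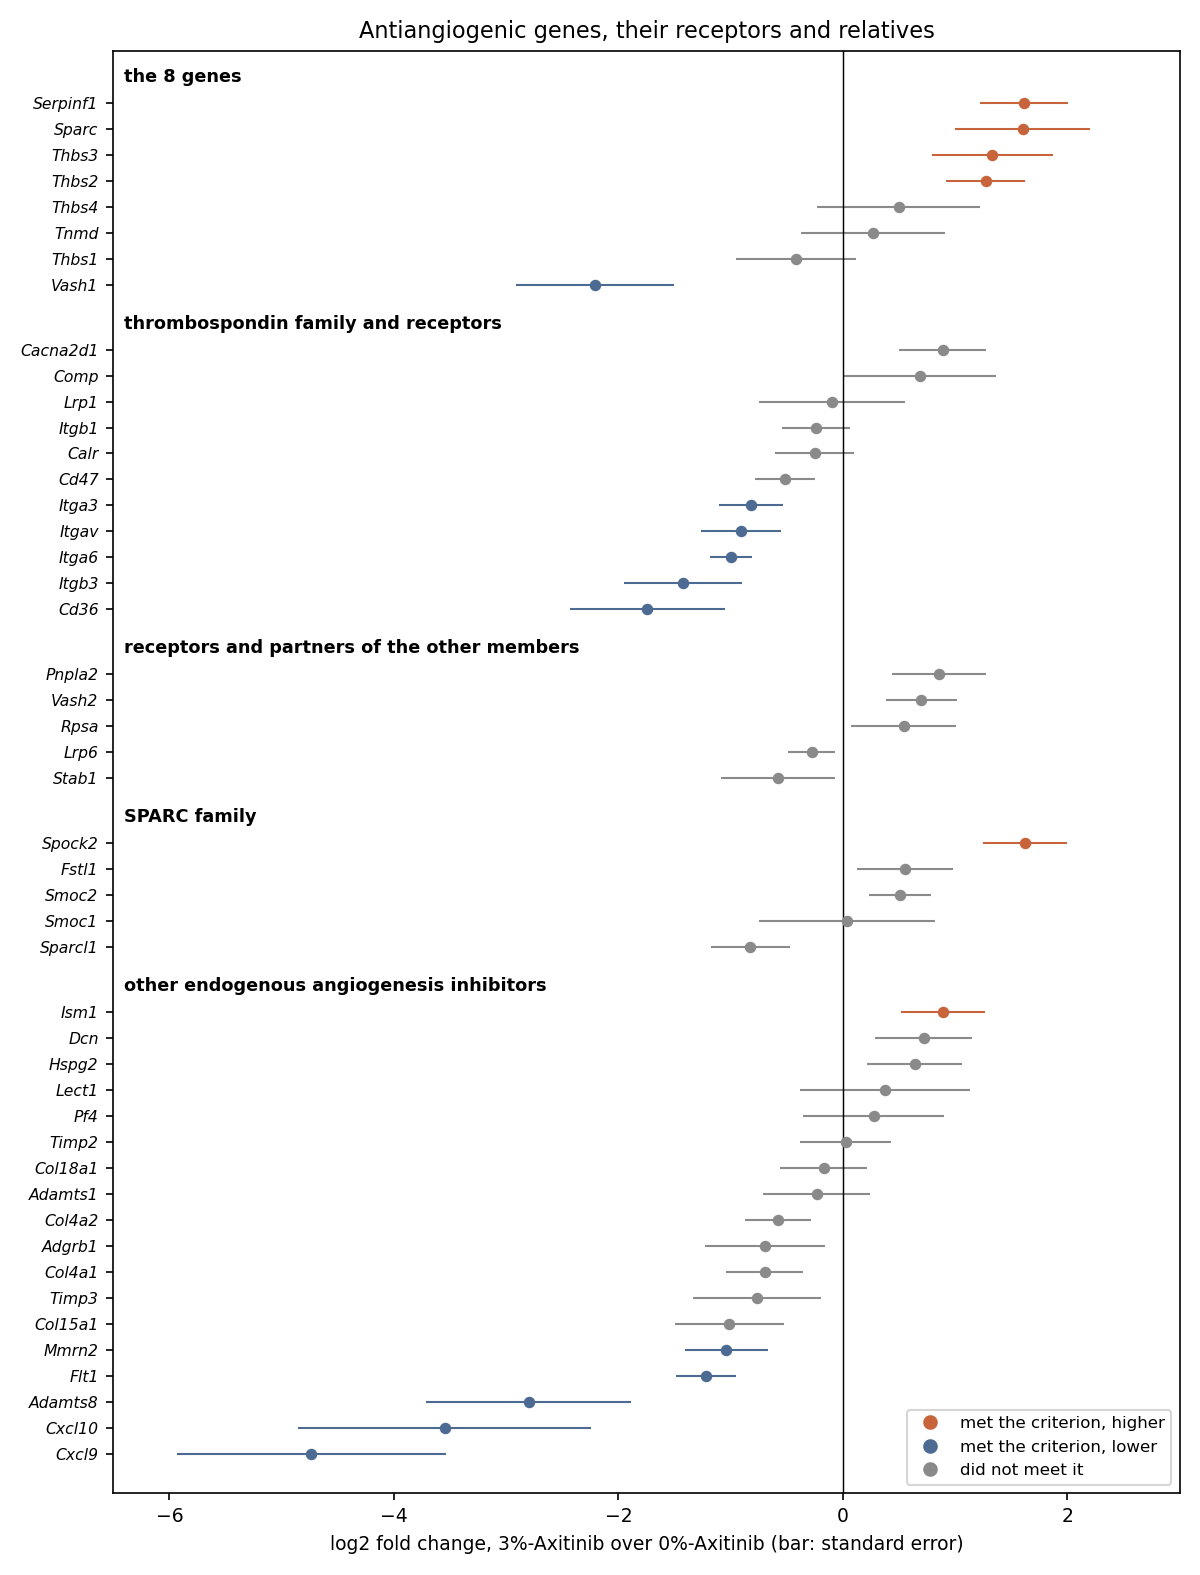
Log2 fold changes of the 3%-Axitinib over the 0%-Axitinib group (points, with standard errors as bars) for the 8 genes and the tested genes of the 4 lists, coloured by whether the criterion was met. Of the 8 genes 4 are higher and 1 is lower, and of the 39 listed genes 2 are higher and 10 lower, beside 9.54% and 11.7% of all tested genes. The sets were not tested against each other.

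Promoter sequences of the 5 genes that met the criterion are shown because 4 of them were higher in the same samples. RefSeq promoters (GRCm38.p6), each holding 250 bases before and 50 bases after the start of a gene, matched 7 of the 8 genes, Thbs1 being the exception. All were searched on both strands for 5 motifs chosen after the levels were seen. They were the GC box with the letters GGGCGG, the box named for its letters CCAAT, the TATA box searched as TATAAA, the core of the hypoxia response element, searched as ACGTG, and the AP-1 site, searched as TGANTCA. In this order, the letters occur in 35.7%, 37.4%, 13.6%, 19.6% and 7.81% of the 32851 promoters in the table. Matches are in capitals, none of them overlaps another, and each sequence runs 5′ to 3′ on the strand of its gene. The promoters lie at chr17:14694213-14694512 for Thbs2 (minus strand), chr3:89214930-89215229 for Thbs3 (plus), chr11:75422574-75422873 for Serpinf1 (minus), chr11:55420031-55420330 for Sparc (minus) and chr12:86678450-86678749 for Vash1 (plus).
Thbs2: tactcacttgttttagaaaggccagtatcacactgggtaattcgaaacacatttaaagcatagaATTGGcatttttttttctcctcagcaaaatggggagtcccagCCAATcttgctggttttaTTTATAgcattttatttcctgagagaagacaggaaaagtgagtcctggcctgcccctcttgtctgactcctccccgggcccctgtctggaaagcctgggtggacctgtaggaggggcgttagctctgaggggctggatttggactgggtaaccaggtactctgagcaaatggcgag
Thbs3: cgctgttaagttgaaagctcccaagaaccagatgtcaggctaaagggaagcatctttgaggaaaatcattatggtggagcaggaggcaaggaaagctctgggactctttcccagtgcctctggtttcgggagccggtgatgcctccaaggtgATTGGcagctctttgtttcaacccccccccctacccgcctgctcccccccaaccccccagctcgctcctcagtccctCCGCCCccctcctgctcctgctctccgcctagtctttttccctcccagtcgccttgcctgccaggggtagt
Serpinf1: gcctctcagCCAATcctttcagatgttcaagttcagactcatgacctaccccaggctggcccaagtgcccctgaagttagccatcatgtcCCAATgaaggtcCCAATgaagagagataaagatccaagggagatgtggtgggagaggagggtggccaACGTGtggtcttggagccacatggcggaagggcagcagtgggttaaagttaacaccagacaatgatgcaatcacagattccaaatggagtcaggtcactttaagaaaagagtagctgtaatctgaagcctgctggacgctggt
Sparc: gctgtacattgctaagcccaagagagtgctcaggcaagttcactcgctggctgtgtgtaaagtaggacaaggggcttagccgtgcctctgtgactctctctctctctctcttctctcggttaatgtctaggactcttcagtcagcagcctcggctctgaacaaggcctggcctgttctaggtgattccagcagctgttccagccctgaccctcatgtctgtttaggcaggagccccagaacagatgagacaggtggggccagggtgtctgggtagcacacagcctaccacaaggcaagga
Vash1: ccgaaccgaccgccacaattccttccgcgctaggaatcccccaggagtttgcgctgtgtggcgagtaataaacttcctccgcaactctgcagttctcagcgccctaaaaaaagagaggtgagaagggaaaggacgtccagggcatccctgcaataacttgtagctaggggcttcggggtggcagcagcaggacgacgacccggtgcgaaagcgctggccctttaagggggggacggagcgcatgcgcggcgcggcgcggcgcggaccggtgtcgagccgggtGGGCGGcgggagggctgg

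The CCAAT letters occur 2 times in the Thbs2 window, 1 time in that of Thbs3 and 3 times in that of Serpinf1, and the other sequences shown hold 0. Thbs2 also holds the TATA box letters 1 time, Serpinf1 the hypoxia core 1 time, and Thbs3 and Vash1 the GC box 1 time each. Of the windows not shown, that of Thbs4 holds the GC box letters 3 times and no other of the 5 motifs, and that of Tnmd holds none. The Sparc window holds none of the 5 motifs, and its start lies inside the longer gene model used for the position above. A match describes these letters in this window and is neither a bound site nor a cause of the levels.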

How the data were processed

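The authors enriched poly(A) RNA, filtered reads with fastp, mapped them to mm10 (GRCm38) with STAR (version 2.5.2b per the submitters' processing notes) and deposited a raw read count for each gene. The annotation release and strand setting are not given in the sources used here. Of the lines, 4 hold reads given to no gene and entered neither library sizes nor tests. Counts were analysed with edgeR 4.0.16 in R 4.3.3 (filterByExpr, minimum count 10 and minimum total 15, TMM, quasi-likelihood test, Benjamini-Hochberg adjustment over 15257 genes), with no covariate. The SE of a log2 fold change was derived from that test, as its absolute value divided by the square root of the F statistic. DESeq2 1.42.0 and limma-voom (limma 3.58.1) were alternatives, beside other scalings, filters, thresholds, the replicate number as a block and each sample left out. Positions and exon lengths came from GENCODE M21 (GRCm38), which held 90.8% of the gene names. The study's criterion was applied to the unadjusted P, which the study does not specify. The study normalised its counts with DESeq2, so the calls and shares given here are not those of the study. The genes and lists were chosen with earlier results of these data known. Named were all 8 genes, per list of relatives at most 5 genes past the criterion with the largest change and the most abundant per length, per marker list the most abundant per length and the first 3, and for each of the 8 genes the 3 with the highest Pearson r of log2 CPM (prior count 2). The smooth muscle and pericyte list was named in full. Figures were drawn with matplotlib 3.10.9.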

Additional observations from a re-analysis of the deposited data

How the results depend on the processing

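With 3 samples a group, 1 library can decide a result. The criterion held for Thbs2 and Serpinf1 without each single sample, for Thbs3 without 2 of 6, and for Sparc and Vash1 without 3 of 6. With single samples left out, log2 fold changes ran from 0.80 to 1.90 for Sparc, 0.92 to 2.04 for Thbs3, -3.09 to -1.75 for Vash1, -0.014 to 1.24 for Thbs4 (negative without 0%-Axitinib replicate 3) and -0.33 to 0.76 for Tnmd (also negative, at -0.08, without 0%-Axitinib replicate 2). Of the 8 genes, 2 to 4 then met the criterion higher and 0 to 1 lower, and of all genes 1055 to 2274 higher, 1308 to 2148 lower, and 0 to 1252 had an adjusted p of at most 0.05. Whether replicate numbers pair the samples is not given in the sources used here. The r of deviations was 0.182, -0.115 and -0.174 for numbers 1, 2 and 3, against -0.221 to 0.212 between unlike numbers. With 3 samples a group, these values cannot decide it. With the replicate block, Sparc was at 1.39 without meeting the criterion, the other calls of the 8 genes held, and 2 genes in all had such an adjusted p. With total counts Thbs3, at 1.19, no longer had a P that met the criterion, and there were 989 genes higher and 2448 lower in place of 1456 and 1785. Without both muscle-rich libraries Thbs2 (1.27) and Thbs3 (0.93) lost the criterion, Sparc was at 2.47, Vash1 at -3.39 and Tnmd at 1.02, 2 of the 8 genes met it higher, and of all genes 558 did so higher, 608 lower and 0 after adjustment. That fit has fewer samples. Adjusted calls numbered 15 with no filter, 1961 with DESeq2 and 2 with limma-voom. A fold change of at least 2 left 879 genes higher and 1072 lower, and a P of at most 0.01 left 552 and 700, with 2 of the 8 genes higher and 0 lower. Causes of these shifts were not tested. DESeq2 size factors and a minimum of 10 counts in every sample changed no call of the 8 genes. Depth limits Vash1 and Tnmd most, with as few as 10 and 19 counts, and floors cover counting error only, because the table counts reads.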
